A study of Mus musculus with 12 samples.

Results

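Transcripts of dorsal root ganglia were compared between ZT2 and ZT20, the zeitgeber times 2 h and 20 h of the cycle of light and dark, counted from lights on. Dorsal root ganglia hold the cell bodies of the neurons that carry touch, pain and body position to the spinal cord, with their glia. The comparison used the 6 libraries labelled with these times, 3 at each, of 12 libraries in all, and spanned the 6 h from late in the dark to early in the light. The other 6 libraries, 3 at ZT8 and 3 at ZT14, entered the model to estimate the spread and are given as reference levels. All ganglia were lumbar, L1 to L6, from male C57BL/6J mice aged 6 to 12 weeks, and the labels name no mutant allele and no agent given to the mice. Time of collection is the only difference between the groups that the labels give. The labels call these libraries naive, do not say whether each came from a separate animal or from pooled ganglia, and do not give the hours of light. The tests can therefore speak only to the spread among these libraries, some of which may be technical. Library numbers in the labels run in the order of the times, 3 to 5 at ZT2 and 16 to 18 at ZT20, so a batch of collection or preparation and the time of day cannot be told apart.

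Nearly all mammalian cells hold a circadian clock, a loop in which CLOCK and BMAL1 (gene Arntl) switch on genes through a DNA element called the E-box, and the products of the Per, Cry and Nr1d genes then repress that activity. The nuclear receptors REV-ERBα and REV-ERBβ, products of Nr1d1 and Nr1d2, close a further loop by holding down Arntl through elements that the ROR receptors also bind. In sensory ganglia the clock runs in neurons and in the glia that wrap them, and outputs of clocks elsewhere in the body (feeding, temperature, hormones, the traffic of blood cells) can also reach the tissue.

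Levels are given as CPM, a gene's count per 1000000 counts of its library after TMM scaling. Because the deposited values are on the scale of coverage, CPM are per length and can be set side by side between genes. In units of 1000000, library totals lay between 91.5 and 104 at ZT2 and between 100.2 and 124.7 at ZT20 on that scale, which is not a number of reads. Log2 CPM of any pair among the 6 libraries had a Pearson r of at least 0.966 across genes, and genes are not independent replicates. The tissue's defining markers were all present in each of the 6 libraries: the sensory neuron genes Prph and Avil lay at 1114 to 1405 CPM and 601 to 703 CPM, the satellite glia gene Kcnj10 at 44.8 to 58.8 CPM and the Schwann cell myelin gene Prx at 118 to 135 CPM. Skeletal muscle transcripts varied widely between libraries within a time, with the 18 muscle markers summing to 252 to 648 CPM at ZT2 and to 202 to 1417 CPM at ZT20. The highest sum was in ZT20 replicate 1.

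The letters below show matches to known clock elements at the only gene that passed the test, Khk, at Fabp7, a glial gene with a large difference across the day, and at Arntl. All are from RefSeq windows of GRCm38.p6, 250 bases before to 50 after a gene's start, printed 5′ to 3′ on the + strand, with the matching letters in capitals. The E-box searched was CACGTG, and the ROR and REV-ERB core was TAGGTCA or TGGGTCA, on both strands. The Fabp7 match reads TGACCTA because it stands on the other strand. The Khk stretch spans chr5:30921476-30921505, its E-box begins 71 bases before the RefSeq start, and it lies within the gene as GENCODE annotates it. The Fabp7 stretch spans chr10:57784741-57784770, with the match 171 bases before the RefSeq start, and the Arntl stretch spans chr7:113207530-113207559, with the match 30 bases after the start of 1 of the gene's RefSeq windows.
Khk E-box: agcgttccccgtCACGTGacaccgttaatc
Fabp7 ROR core: tgggaggatctTGACCTActccgctaaccc
Arntl ROR core: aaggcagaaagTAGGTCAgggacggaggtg
Of 32851 RefSeq windows, 7.15% held CACGTG, 2.61% held TAGGTCA and 3.98% held TGGGTCA, so these letters are common. Among the 24 genes of lowest p described below, 21 had a window, of which 3 held the E-box (Khk, Dock9 and Taf8) and 3 held a ROR core (Dock9, Taf8 and Cebpg). A match is a description of letters and not a site of binding, and no relation of these matches to the differences was tested.

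Khk was the only gene that passed the test, and it fell from ZT20 to ZT2. It encodes ketohexokinase, which phosphorylates fructose in the first step of its breakdown, and lies at chr5:30921431-30931248 on the + strand (ENSMUSG00000029162.15). Its levels were 37.8, 34.7 and 36.1 CPM in the ZT20 libraries and 20.2, 20.2 and 23.5 CPM in the ZT2 libraries. Every ZT2 library lay below every ZT20 library, by a wide margin against the spread within a time. The means of 36.2 ± 1.54 CPM (SD, n = 3) and 21.3 ± 1.92 CPM (SD, n = 3) made Khk 1.70-fold lower at ZT2. On the log2 scale it fell by 0.76 ± 0.08 (SE), with an edgeR adjusted p of 0.0222. ZT8 and ZT14, at 34.9 ± 1.99 and 33.5 ± 2.91 CPM, were near the ZT20 level. Of 25809 genes tested, 1, or 0.00387%, was called by edgeR.

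The size of the Khk difference held in all 23 other settings, between -0.84 and -0.69 on the log2 scale, while the call held in 14 of them. In edgeR it was lost without ZT2 replicate 1 (adjusted p = 0.196), ZT2 replicate 2 (0.0978), ZT8 replicate 1 (0.0646), ZT8 replicate 2 (0.0554), ZT14 replicate 3 (0.0518), ZT20 replicate 1 (0.138) or ZT20 replicate 3 (0.139), in the 6 libraries alone (0.192) and without the library richest in muscle RNA at each time (0.215). With the muscle markers' level as a covariate, Khk's adjusted p was 0.0379.

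**Figure D1:**
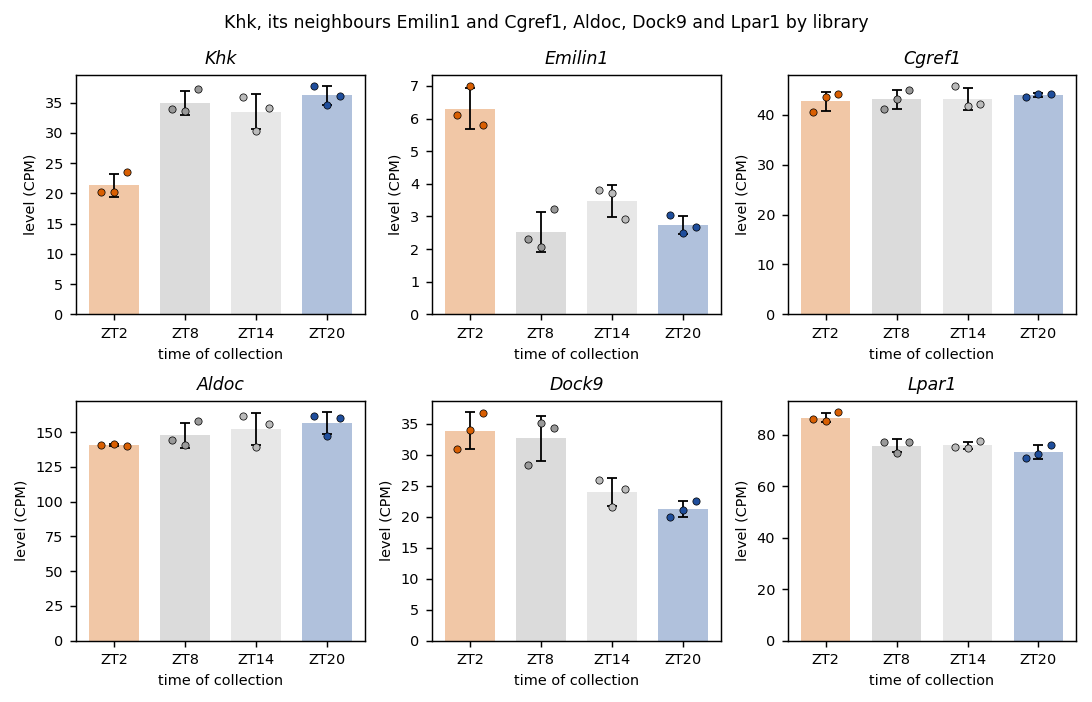
Levels in CPM (y axis, from 0) of Khk, its neighbours Emilin1 and Cgref1, and of Aldoc, Dock9 and Lpar1 at the 4 times of collection (x axis). Points are libraries, bars are means and error bars are SD over 3 libraries. Khk is low in the 3 ZT2 libraries, at 20.2 to 23.5 CPM, where Emilin1 is high, at 5.79 to 7.00 CPM.

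The gene just before Khk differed in the opposite direction. Emilin1, an extracellular matrix protein of elastic fibres, is on the same strand and ends at base 30921277, 153 bases before Khk begins. It read 6.10, 7.00 and 5.79 CPM at ZT2 and 3.03, 2.49 and 2.66 CPM at ZT20. Its 3 ZT2 libraries were all above the 3 ZT20 libraries, a log2 difference of 1.21 ± 0.17 that did not pass in edgeR (adjusted p = 0.0972). DESeq2 gave it an adjusted p of 6.10e-07. The 122 bases that lie just before the annotated start of Khk, chr5:30921309-30921430, are shown because they make up most of the gap between these genes.
Khk upstream: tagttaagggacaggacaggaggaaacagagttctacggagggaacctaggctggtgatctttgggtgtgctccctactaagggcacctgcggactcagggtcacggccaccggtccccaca
The other tested genes around Khk differed little. Agbl5, 5930420M18Rik and Ost4 before it and Cgref1, Abhd1, Preb and Slc5a6 after it had log2 differences between -0.18 and 0.13, each with an adjusted p of at least 0.741 in edgeR. Cgref1, the next gene downstream, read 40.6, 43.5 and 44.1 CPM at ZT2 and 43.6, 44.3 and 44.3 CPM at ZT20.

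Other neighbouring or overlapping genes with values of opposite sign included the pairs of Ganab with Ints5 and of Rbm42 with Gm21982, picked out after their values were seen because both genes of each pair had an unadjusted p under 0.05. Ganab, the catalytic subunit of glucosidase II of the endoplasmic reticulum, begins 182 bases after Ints5, a subunit of the Integrator complex, ends on the same strand of chromosome 19. Ganab read 68.5, 65.8 and 44.3 CPM at ZT2 and 33.0, 39.2 and 43.0 CPM at ZT20, while Ints5 read 19.2, 17.2 and 25.1 CPM at ZT2 and 26.2, 26.5 and 25.6 CPM at ZT20. In ZT2 replicate 3 both genes were near their ZT20 levels, so the other ZT2 libraries carried the difference. Rbm42, an RNA-binding protein of chromosome 7, overlaps Gm21982 on the same strand. Rbm42 read 35.4, 63.7 and 26.8 CPM at ZT2 and 72.0, 71.5 and 66.5 CPM at ZT20, and Gm21982 read 23.6, 12.3 and 30.2 CPM at ZT2 and 9.59, 12.3 and 15.3 CPM at ZT20. The ZT2 libraries with low Rbm42 were those with high Gm21982. None of these 4 genes passed in edgeR with all libraries, and 1 of them, Ganab, passed in DESeq2 (adjusted p = 0.0106), while Ganab and Ints5 passed without ZT2 replicate 3 (adjusted p = 0.0251 and 0.0165) and Rbm42 passed without ZT2 replicate 2 (adjusted p = 0.0363). How the authors' counting divides reads between such neighbours was not tested. Of the 31 genes named for their p or for a call in any edgeR setting, 16 overlapped another tested gene or lay within 500 bases of one. The share of all tested genes with such a neighbour was not computed, so this count cannot show whether the named genes are unusual.

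Most genes were at like levels at both times. Of 16255 genes with a mean of at least 1 CPM over the 6 libraries, 97.6% differed by less than 0.5 on the log2 scale, with a median SE of 0.085. There were 67 beyond 1 on the log2 scale, 40 higher and 27 lower at ZT2, and over all 25809 tested genes the median log2 difference was -0.00. An unadjusted p under 0.05 was reached by 1820 genes, or 7.05%, of which 834 (3.23%) were higher and 986 (3.82%) lower at ZT2. That split turned to 1008 higher and 746 lower when library totals alone set the scale. The 3 ZT2 libraries did not overlap the 3 ZT20 libraries in 3811 genes, 14.8% of those tested, 7.18% higher and 7.59% lower at ZT2. DESeq2 called 83 genes, 0.322%, of which 47 were higher and 36 lower, with 21 of them under 1 CPM, and limma-trend called 1 gene, 0.00387%, which was Khk. The counts given below for each gene list are to be read against these shares of all tested genes.

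**Figure D2:**
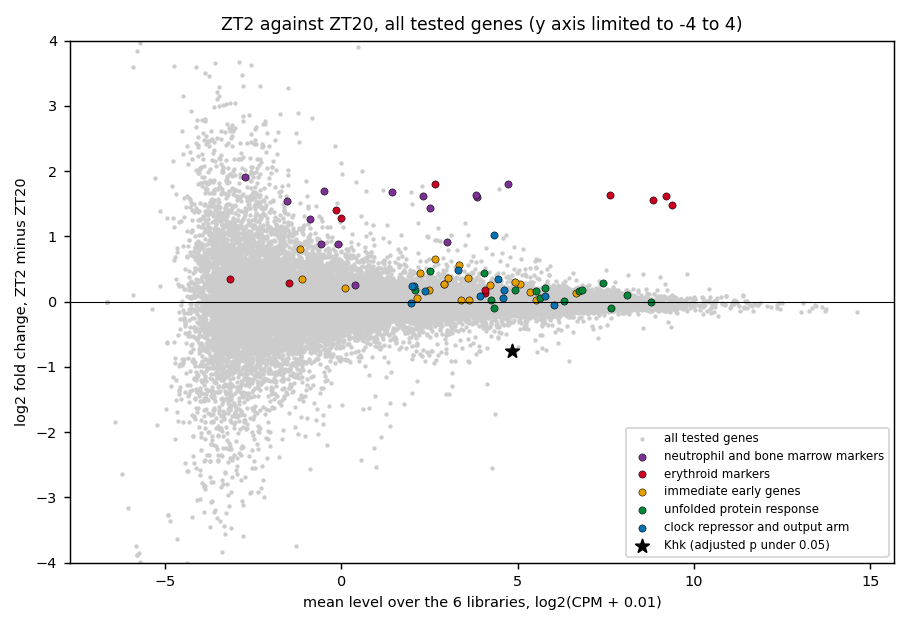
Log2 difference between ZT2 and ZT20 (y axis, positive where ZT2 is higher) against mean level over the 6 libraries on a log2 scale (x axis) for the 25809 tested genes in grey, with members of chosen lists in colour and Khk as a star. Neutrophil and erythroid genes sit above the cloud, at medians of 1.57 and 1.41, and most genes lie near 0.

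The step from ZT20 to ZT2, across lights on, was set against the step from ZT8 to ZT14, which uses none of the same libraries. On the log2 scale this contrast is the same quantity as ZT2 plus ZT8 minus ZT14 minus ZT20. It therefore cannot tell a change particular to lights on from a difference of ZT2 and ZT8 against ZT14 and ZT20. No gene passed in edgeR, where 1409 genes, 5.46%, had an unadjusted p under 0.05 and the lowest adjusted p was 0.0644; DESeq2 called 76 genes and limma-trend 2. That lowest edgeR value belonged to Fabp7 and Dock9. Fabp7, the brain fatty acid-binding protein of satellite glia, read 628, 566 and 577 CPM at ZT2 and 453, 436 and 477 CPM at ZT20. Its ZT2 libraries were all higher, and the means at ZT8 and ZT14 were lower still, at 322 and 221 CPM. The Fabp7 log2 difference between the steps was 0.92 ± 0.11. Dock9, an activator of the small GTPase CDC42, read 30.9, 34.1 and 36.8 CPM at ZT2 and 20.0, 21.1 and 22.6 CPM at ZT20. Its groups did not overlap, its ZT8 and ZT14 means were 32.7 and 24.04 CPM, and its log2 difference between the steps was 1.12 ± 0.14. For Khk the steps differed by -0.70 ± 0.11, with an edgeR adjusted p of 0.141.

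Most genes listed in the clock's repressor and output arm read higher at ZT2. None of them passed in edgeR after adjustment, while Nr1d1 and Nr1d2 passed in DESeq2. The repressor gene Cry1 is not in this list. It is counted below with the activator arm and was lower at ZT2. Of the 12 genes of the repressor and output arm, 10 had a log2 difference above 0, against 49% of all tested genes, the median was 0.17, and 4 were higher at an unadjusted p under 0.05 (0 lower). Nr1d1 read 26.6, 31.8 and 22.5 CPM at ZT2 and 12.9, 14.4 and 12.8 CPM at ZT20. Every ZT2 library was above every ZT20 library, the log2 difference was 1.02 ± 0.19, and the adjusted p was 0.332 in edgeR and 7.53e-05 in DESeq2. Nr1d1 overlaps Thra, a thyroid hormone receptor gene on the opposite strand, and Thra was at 266 to 301 CPM in the 6 libraries with a log2 difference of -0.06. Nr1d2 read 23.7, 25.6 and 24.3 CPM at ZT2 and 17.8, 21.6 and 18.5 CPM at ZT20, again without overlap. Its log2 difference was 0.35 ± 0.07 (edgeR adjusted p = 0.367, DESeq2 adjusted p = 0.00929).

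No remaining member of the repressor and output arm passed in edgeR or DESeq2. The other members under an unadjusted p of 0.05 were Bhlhe40, which encodes the E-box repressor DEC1 and differed by 0.17 ± 0.07, and Per2, which differed by 0.24 ± 0.11. Per2 read 4.66, 4.09 and 4.74 CPM at ZT2 and 3.33, 4.39 and 3.68 CPM at ZT20, so its groups overlapped. Dbp, an output factor that binds D-boxes, read 10.4, 14.7 and 9.57 CPM at ZT2 and 8.04, 9.16 and 7.57 CPM at ZT20. Its log2 difference of 0.49 ± 0.24 was larger than that of Nr1d2 but had a wider error (unadjusted p = 0.0643 in edgeR). Ciart, a repressor of CLOCK and BMAL1, averaged 4.31 and 3.63 CPM. Both were without overlap, and both were far below their ZT8 means of 32.1 and 9.18 CPM. Per1, Per3, Cry2, Tef, Hlf and Bhlhe41 overlapped between the times, with log2 differences from -0.05 to 0.16. Without ZT20 replicate 1 or ZT2 replicate 1, the members under an unadjusted p of 0.05 numbered 2.

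Arntl was at the same high level at both times. It read 6.40, 6.05 and 6.27 CPM at ZT2 and 6.75, 5.54 and 6.88 CPM at ZT20, with means of 2.83 and 2.63 CPM at ZT8 and ZT14. The log2 difference between ZT2 and ZT20 was -0.03, with a 95% interval from -0.27 to 0.21. Of the 7 tested genes of the activator arm and in phase with it, 4 lay above 0, the median was 0.05, and 1 was higher and 1 lower at an unadjusted p under 0.05. The higher one was Nfil3, a repressor of D-box genes, at 9.04, 8.51 and 9.23 CPM at ZT2 and 7.38, 7.46 and 8.31 CPM at ZT20. The lower one was Cry1, at 10.8, 9.97 and 10.9 CPM at ZT2 and 11.5, 10.9 and 12.6 CPM at ZT20, a log2 difference of -0.14 ± 0.06. Clock, Npas2 and Rora overlapped between the times. Among 12 kinases and ligases of clock proteins 7 lay above 0, the median was 0.00, and 1, Usp2, a ubiquitin protease of clock proteins, was lower at an unadjusted p under 0.05, at a log2 difference of -0.22 ± 0.09.

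**Figure D3:**
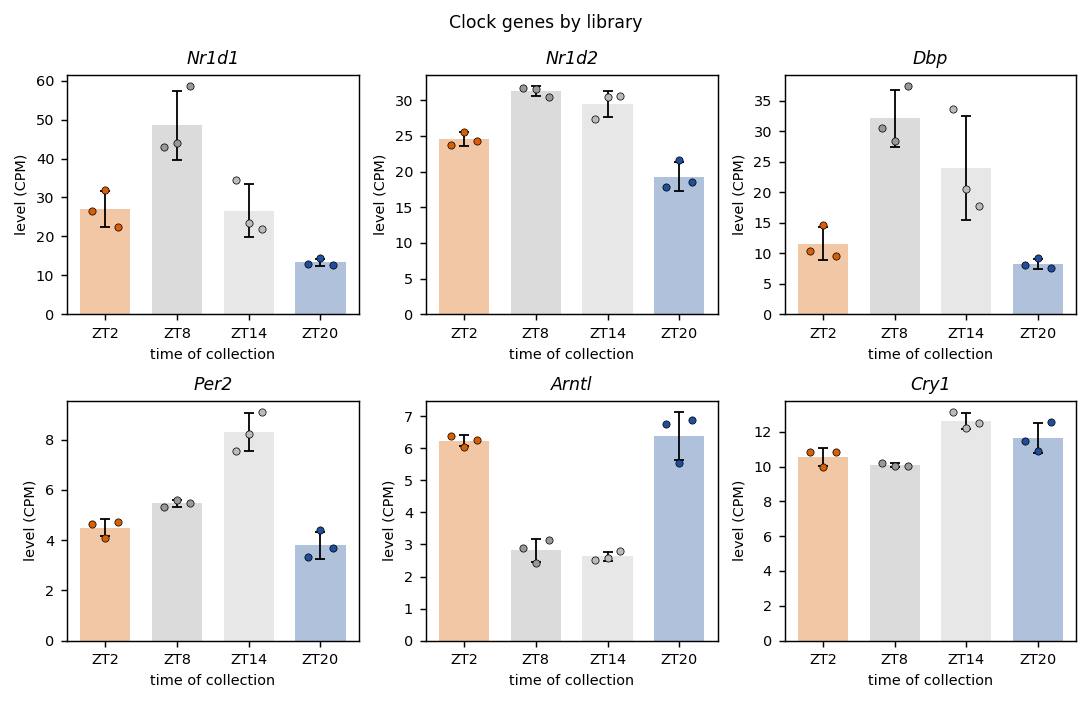
Levels in CPM (y axis, from 0) of the clock genes Nr1d1, Nr1d2, Dbp, Per2, Arntl and Cry1 at the 4 times of collection (x axis). Points are libraries, bars are means and error bars are SD over 3 libraries. Nr1d1 and Nr1d2 are at their lowest mean at ZT20 and higher at ZT2, while Arntl is near 6 CPM at both of these times and near 3 CPM at the other times.

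Other genes of fructose and glucose handling differed by less than Khk, and none passed in edgeR. Of the 14 genes of fructose and polyol metabolism, 12 lay below 0, with a median log2 difference of -0.08. At an unadjusted p under 0.05, 2 were lower, Khk itself and Aldoc. Over all 25809 tested genes 13145 lay below 0, and 3.82% were lower at that p. Aldoc, a fructose bisphosphate aldolase of neural tissue, read 140, 141 and 140 CPM at ZT2 and 162, 147 and 160 CPM at ZT20, a log2 difference of -0.15 ± 0.06 without overlap. Tkfc, triokinase, an enzyme that follows Khk, overlapped between the times and averaged 12.3 and 13.0 CPM. The fructose transporter Slc2a5 was low, at 1.24 and 1.15 CPM, and Sord, sorbitol dehydrogenase, which makes fructose from sorbitol, stood at 75.5 and 79.4 CPM. Of 19 glycolysis genes 15 lay below 0, with a median of -0.05, and 1 was lower at an unadjusted p under 0.05, the glucose transporter Slc2a1, at 45.3, 45.1 and 43.0 CPM at ZT2 and 50.8, 49.4 and 50.0 CPM at ZT20. With library totals alone as the scale, 11 fructose genes and 13 glycolysis genes lay below 0.

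Targets of the sugar-sensing factors ChREBP and MondoA split evenly, 4 above and 4 below 0 among 8, with Khk itself the 1 below an unadjusted p of 0.05. Of 20 sterol synthesis genes 11 lay below 0, and 2 were lower at an unadjusted p under 0.05, against 3.82% of all tested genes. The 2 were Lss, lanosterol synthase, with a log2 difference of -0.36 ± 0.09, and Nsdhl at -0.10 ± 0.04. The median of the sterol genes was -0.00.

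Most transcripts of red cells and neutrophils read higher at ZT2, and with all libraries these lists had the medians farthest from 0. Of 11 tested erythroid markers all 11 had a log2 difference above 0, with a median of 1.41, and 8 were higher at an unadjusted p under 0.05, against 3.23% of all genes, although 0 passed in edgeR after adjustment and 6 passed in DESeq2. Alas2, which begins haem synthesis in red cell precursors, read 12.6, 10.53 and 5.90 CPM at ZT2 and 3.48, 2.41 and 2.40 CPM at ZT20. All ZT2 libraries were above all ZT20 libraries, with a log2 difference of 1.81 ± 0.23 and an edgeR adjusted p of 0.0972. Hba-a1, an α-globin gene, read 1351, 986 and 625 CPM at ZT2 and 432, 329 and 297 CPM at ZT20, and the β-globin gene Hbb-bs read 1231, 925 and 513 CPM at ZT2 and 389, 268 and 211 CPM at ZT20. In both, replicate 1 was the highest and replicate 3 the lowest of the ZT2 libraries, and neither overlapped with ZT20. Hba-a2 and Hbb-bt are near-identical copies of these genes, so how the reads divide within each pair is uncertain, and their log2 differences were 1.56 and 1.63. Slc4a1, the anion exchanger of the red cell membrane, at a mean of 1.40 CPM at ZT2, differed by 1.28 ± 0.34. Epb42, a protein of the red cell membrane skeleton, overlapped between the times, at means of 0.38 and 0.31 CPM.

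Neutrophil and bone marrow markers also read higher at ZT2. All 14 lay above 0, against 49% of all tested genes, with a median of 1.57. At an unadjusted p under 0.05, 13 were higher, against 3.23% of all tested genes. After adjustment 0 passed in edgeR and 7 passed in DESeq2, which called 0.322% of all tested genes. S100a8, a calcium-binding protein of neutrophil cytoplasm, read 29.5, 21.1 and 13.8 CPM at ZT2 and 8.49, 5.87 and 6.81 CPM at ZT20. Its partner S100a9 read 59.2, 41.9 and 22.8 CPM at ZT2 and 16.6, 8.77 and 10.1 CPM at ZT20. For both genes the lowest ZT2 library, replicate 3, was still above the highest ZT20 library, replicate 1. Camp, Ngp and Ltf, whose products fill neutrophil granules, differed by 1.43 ± 0.25, 1.63 ± 0.32 and 1.68 ± 0.36. Elane, Mpo and Ctsg, granule enzymes made in the bone marrow, were low, with ZT2 means of 0.86, 0.74 and 0.22 CPM, and log2 differences of 0.88, 1.26 and 1.91.

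Summed over each list, erythroid markers stood at 4031, 2982 and 1697 CPM at ZT2 and 1265, 933 and 814 CPM at ZT20, and neutrophil markers at 169, 119 and 73.0 CPM at ZT2 and 53.3, 33.1 and 37.1 CPM at ZT20. ZT20 was the lowest of the 4 times for both lists: erythroid sums were 2246 to 2440 CPM at ZT8 and 3727 to 4080 CPM at ZT14, and neutrophil sums 82.1 to 115 and 88.6 to 130 CPM. Without ZT2 replicate 1, where both lists were highest, 9 of 14 neutrophil and 7 of 11 erythroid markers were higher at an unadjusted p under 0.05, and without the library richest in muscle RNA at each time 8 of 14 and 8 of 11 were. Without ZT2 replicate 3, where both were lowest among the ZT2 libraries, edgeR called 11 genes, among them Alas2, Hba-a1, Hba-a2, Hbb-bs, Hbb-bt, S100a8 and Chil3, a secreted protein of myeloid cells. In bulk tissue more cells of a type and more RNA per cell cannot be told apart, and the labels do not say whether the mice were perfused.

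Lymphocyte and tissue macrophage markers had medians nearer 0. Of 13 T and B cell markers 11 lay above 0, with a median of 0.20, and 0 had an unadjusted p under 0.05, and their sums of 75.8 to 83.0 CPM at ZT2 and 70.9 to 78.4 CPM at ZT20 overlapped. Their median moved from 0.03 without ZT20 replicate 3 and 0.06 without ZT2 replicate 2 to 0.56 without ZT20 replicate 1. Of 15 macrophage markers 1, Cd163, was lower at ZT2 at that p, at 1.27 against 1.72 CPM, and 0 were higher. Without ZT2 replicate 3, 3 macrophage markers were higher at that p and the median moved from 0.05 to 0.21.

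The skeletal muscle list had a median of -0.49 with 0 of 18 markers at an unadjusted p under 0.05. Acta1, skeletal actin, read 95.4, 116 and 25.9 CPM at ZT2 and 290, 7.56 and 32.0 CPM at ZT20, so both extremes were at ZT20. Without ZT20 replicate 1 the muscle median turned to 1.80, above those of the neutrophil (1.72) and erythroid (1.42) lists in that setting, and all 18 markers lay above 0. The adipocyte list had a median of -0.35, with sums of 18.4 to 37.5 CPM at ZT2 and 21.4 to 73.0 CPM at ZT20, the highest again in replicate 1. With the muscle level as a covariate 8 of 11 erythroid and 13 of 14 neutrophil markers were higher at an unadjusted p under 0.05, as were 1874 of all tested genes.

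**Figure D4:**
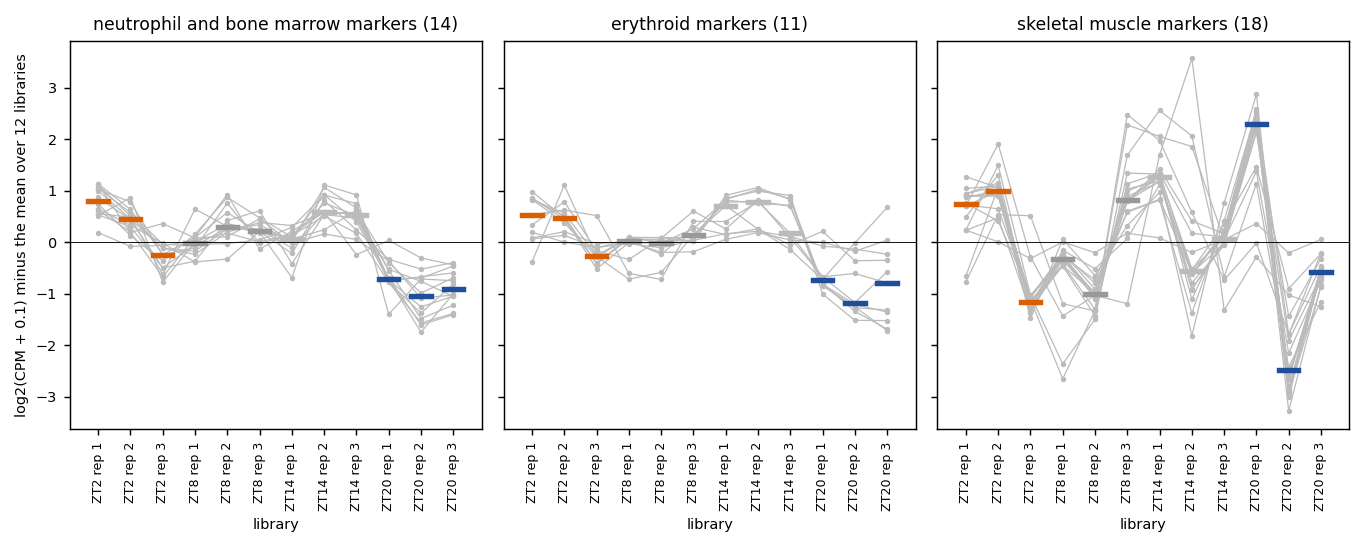
Each list member's level on a log2 scale, centred on its mean over the 12 libraries (y axis), in each library (x axis) for the erythroid, neutrophil and skeletal muscle lists. Grey lines are genes and each coloured bar is the list's median in that library. Erythroid and neutrophil bars are lowest in the ZT20 libraries, while muscle bars swing between libraries of 1 time, with ZT20 replicate 1 highest and ZT20 replicate 2 lowest.

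Immediate early genes are those that neurons and other cells induce within minutes of stimulation. All 20 lay above 0, against 49% of all tested genes, with a median of 0.27. At an unadjusted p under 0.05, 8 were higher, against 3.23% of all tested genes, with 0 called in edgeR or DESeq2 after adjustment. Fos read 7.09, 8.75 and 7.06 CPM at ZT2 and 5.28, 4.61 and 4.59 CPM at ZT20, and Dusp1, a phosphatase of MAP kinases, read 33.4, 34.9 and 33.2 CPM at ZT2 and 29.3, 27.4 and 25.6 CPM at ZT20. Neither overlapped, with log2 differences of 0.66 ± 0.17 and 0.30 ± 0.08. The others were Fosl2, Junb, Egr1, Egr2, Egr3 and Nr4a3, at 0.28 to 0.81, of which Junb and Egr3 overlapped between the times. Arc, Nr4a1, Nr4a2 and Atf3 differed by 0.03 to 0.06. Leaving out 1 of the 6 libraries gave 6 to 9 members under that p, and leaving out the library richest in muscle RNA at each time gave 5, with 17 of 20 above 0 and a median of 0.18. The ZT14 mean of Fos, 7.71 CPM, was near that of ZT2.

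Chaperones of the cytosol and of the endoplasmic reticulum leaned the same way. Of 15 heat shock genes 13 lay above 0, the median was 0.14, and 8 were higher at an unadjusted p under 0.05. Over all tested genes 49% lay above 0 and 3.23% were higher at that p. Hsp90aa1, the inducible HSP90, read 1477, 1505 and 1455 CPM at ZT2 and 1247, 1344 and 1295 CPM at ZT20. Its groups were apart, by 0.19 ± 0.05 on the log2 scale. The HSP70 genes Hspa1a and Hspa1b differed by 0.38 ± 0.09 and 0.38 ± 0.10. They are near-identical copies, so the split between them is uncertain. Dnajb1, Hspd1, Hspe1, Chordc1 and Hspa4l differed by 0.14 to 0.24, while the constitutive Hspa8 and Hsp90ab1, at ZT2 means of 3492 and 2939 CPM, differed by -0.05 and 0.01.

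Of 16 genes of the unfolded protein response 13 lay above 0, with a median of 0.16, 8 higher and 1 lower at an unadjusted p under 0.05. Over all tested genes 3.23% were higher and 3.82% lower at that p. Hspa5, the chief chaperone of the endoplasmic reticulum, read 191, 181 and 192 CPM at ZT2 and 155, 148 and 162 CPM at ZT20. No ZT2 library came below a ZT20 library, the difference was 0.28 ± 0.07, and the adjusted p was 0.535 in edgeR and 0.0341 in DESeq2. Creld2, Pdia4, Pdia6, Hsp90b1, Dnajc3, Hyou1 and Xbp1, which fold proteins there or direct the response, differed by 0.11 to 0.43. The 1 lower gene was Atf4, the factor of the integrated stress response, at -0.10 ± 0.04. Ppp1r15a, which restores translation after that response and is in none of the lists, read 29.6, 30.8 and 27.9 CPM at ZT2 and 37.7, 35.1 and 34.2 CPM at ZT20, a difference of -0.28 ± 0.06 without overlap. Leaving out 1 library gave 6 to 9 heat shock genes and 5 to 9 genes of the unfolded protein response higher at that p, the 5 without ZT2 replicate 3.

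The 3 cold-inducible RNA-binding genes all lay below 0, the direction opposite to heat shock. Rbm3 read 98.3, 124 and 136 CPM at ZT2 and 182, 150 and 146 CPM at ZT20. Its groups did not overlap, although replicate 3 of the times lay close, and its log2 difference was -0.41 ± 0.13 at an edgeR adjusted p of 0.672. Cirbp and Srsf5 differed by -0.17 and -0.09.

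Interferon-stimulated genes all lay above 0, 16 of 16 with a median of 0.26, while 2 had an unadjusted p under 0.05, Ifi27 at 0.14 ± 0.04 and Ifi44 at 0.61 ± 0.26. That count moved with single libraries. Without ZT20 replicate 2 there were 9 higher at that p. So were 1127 of 26863 tested genes in that setting, against 834 of 25809 with all libraries. Without ZT20 replicate 1 there was 1 such interferon-stimulated gene and 14 lay above 0. Without the library richest in muscle RNA at each time 6 lay above 0 and the median was -0.02.

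Glucocorticoid-responsive genes split, with 12 of 18 below 0 and a median of -0.05. Dusp1 and Lcn2, also a neutrophil product, were higher and Fam107a lower at an unadjusted p under 0.05. Dusp1 is also in the immediate early list, and Lcn2 in the neutrophil list.

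The channels by which these neurons fire showed no difference that passed. In edgeR 0 of 14 sodium channel genes, 0 of 30 potassium and HCN channel genes and 0 of 15 calcium channel genes had even an unadjusted p under 0.05, and 0 passed in DESeq2. Scn10a and Scn11a, the channels Nav1.8 and Nav1.9 of nociceptors, averaged 151.8 and 209.9 CPM at ZT2 and 152.2 and 203.6 CPM at ZT20. Their log2 differences had 95% intervals from -0.18 to 0.17 and from -0.12 to 0.21. Scn9a, Nav1.7, differed by 0.13, with an interval from -0.05 to 0.31. Kcnq3, a subunit of the M current, differed by -0.01, with an interval from -0.15 to 0.14. Across the channel lists the medians were 0.07, 0.00 and 0.02, and leaving out 1 of the 6 libraries gave at most 2 members of a list in 1 direction at an unadjusted p under 0.05.

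Among 22 channels of sensory transduction, 14 lay above 0 with a median of 0.06, and 2 were higher at an unadjusted p under 0.05. Piezo2, a force-gated channel needed for touch and the sense of limb position, read 101, 107 and 120 CPM at ZT2 and 74.5, 85.0 and 82.0 CPM at ZT20. All ZT2 libraries were higher, by 0.44 ± 0.11 on the log2 scale, with an adjusted p of 0.547 in edgeR and 0.0370 in DESeq2. At ZT14 Piezo2 averaged 108.7 CPM, the ZT2 level. The heat and capsaicin receptor Trpv1, the irritant receptor Trpa1 and the cold receptor Trpm8 differed by 0.15, 0.16 and 0.06, with intervals that all included 0.

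Of 14 neuropeptides 1 was higher at an unadjusted p under 0.05, against 3.23% of all tested genes. Calcb, which encodes the β form of calcitonin gene-related peptide, read 222, 174 and 242 CPM at ZT2 and 136, 157 and 161 CPM at ZT20. The ZT2 libraries were spread widely but stayed above ZT20, with a log2 difference of 0.49 ± 0.13 and an adjusted p of 0.562 in edgeR and 0.0372 in DESeq2. Calca, the gene of the α form, read 2762, 2877 and 2760 CPM at ZT2 and 2530, 2889 and 2409 CPM at ZT20, so its groups overlapped. Calca and Calcb are related genes with similar coding sequence, so reads may be shared between them. Tac1, the gene of substance P, averaged 537 and 532 CPM.

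Of 28 receptors for opioids, cannabinoids and inflammatory mediators 3 were higher at an unadjusted p under 0.05, against 3.23% of all tested genes. Lpar1, a receptor of lysophosphatidic acid, read 86.2, 85.3 and 88.8 CPM at ZT2 and 70.9, 72.6 and 76.2 CPM at ZT20. The spread within each time was small, the groups did not overlap and the log2 difference was 0.24 ± 0.04, with an adjusted p of 0.213 in edgeR and 3.35e-06 in DESeq2. Cnr1, the cannabinoid receptor CB1, averaged 17.8 and 15.8 CPM, and Ptger1, the prostaglandin receptor EP1, 12.0 and 10.6 CPM. Oprm1, the μ-opioid receptor, was at 1.99 and 1.96 CPM.

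Of 14 non-peptidergic nociceptor and itch markers 3 were higher at an unadjusted p under 0.05, against 3.23% of all tested genes. Mrgprb4 read 12.8, 13.4 and 19.3 CPM at ZT2 and 11.7, 9.85 and 11.4 CPM at ZT20, and Mrgprx1 read 33.5, 33.0 and 27.7 CPM at ZT2 and 26.5, 23.9 and 27.2 CPM at ZT20. Neither receptor overlapped between the times, although the margin of Mrgprx1 was narrow. Il31ra, the receptor of interleukin 31, owed its difference to 1 library, with 9.01, 78.9 and 13.4 CPM at ZT2 and 10.2, 10.8 and 9.50 CPM at ZT20. Of 12 peptidergic nociceptor markers, 10 neurotrophin and GDNF family receptors and 15 injury-induced genes, 0 had an unadjusted p under 0.05 with all libraries. Without ZT20 replicate 2, 2, 2 and 3 of them were higher at that p. So were 1127 of 26863 tested genes in that setting, against 834 of 25809 with all libraries. The injury median moved from 0.03 to 0.19 without ZT20 replicate 2. It was -0.05 without ZT20 replicate 1, and 2 peptidergic markers were higher without ZT2 replicate 1.

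Glial genes did not move as 1 group. Of 15 satellite glia markers 11 lay above 0 with a median of 0.07, 2 higher and 1 lower at an unadjusted p under 0.05. The higher ones were Fabp7, given above with a log2 difference of 0.38 ± 0.08 (adjusted p = 0.366 in edgeR, 0.00201 in DESeq2), and Slc1a3, a glutamate transporter, at 0.14 ± 0.06. The lower one was Sox2, a transcription factor of glial precursors, at 13.7, 12.5 and 16.4 CPM at ZT2 and 18.7, 18.9 and 17.2 CPM at ZT20, a difference of -0.36 ± 0.12. Of 13 Schwann cell myelin genes 12 lay below 0, with a median of -0.09. Pmp22, a compact myelin protein, was the 1 lower at an unadjusted p under 0.05, at 2397 CPM against 2654 CPM on average, and Egr2, a factor of myelination given above among immediate early genes, was the 1 higher.

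**Figure D5:**
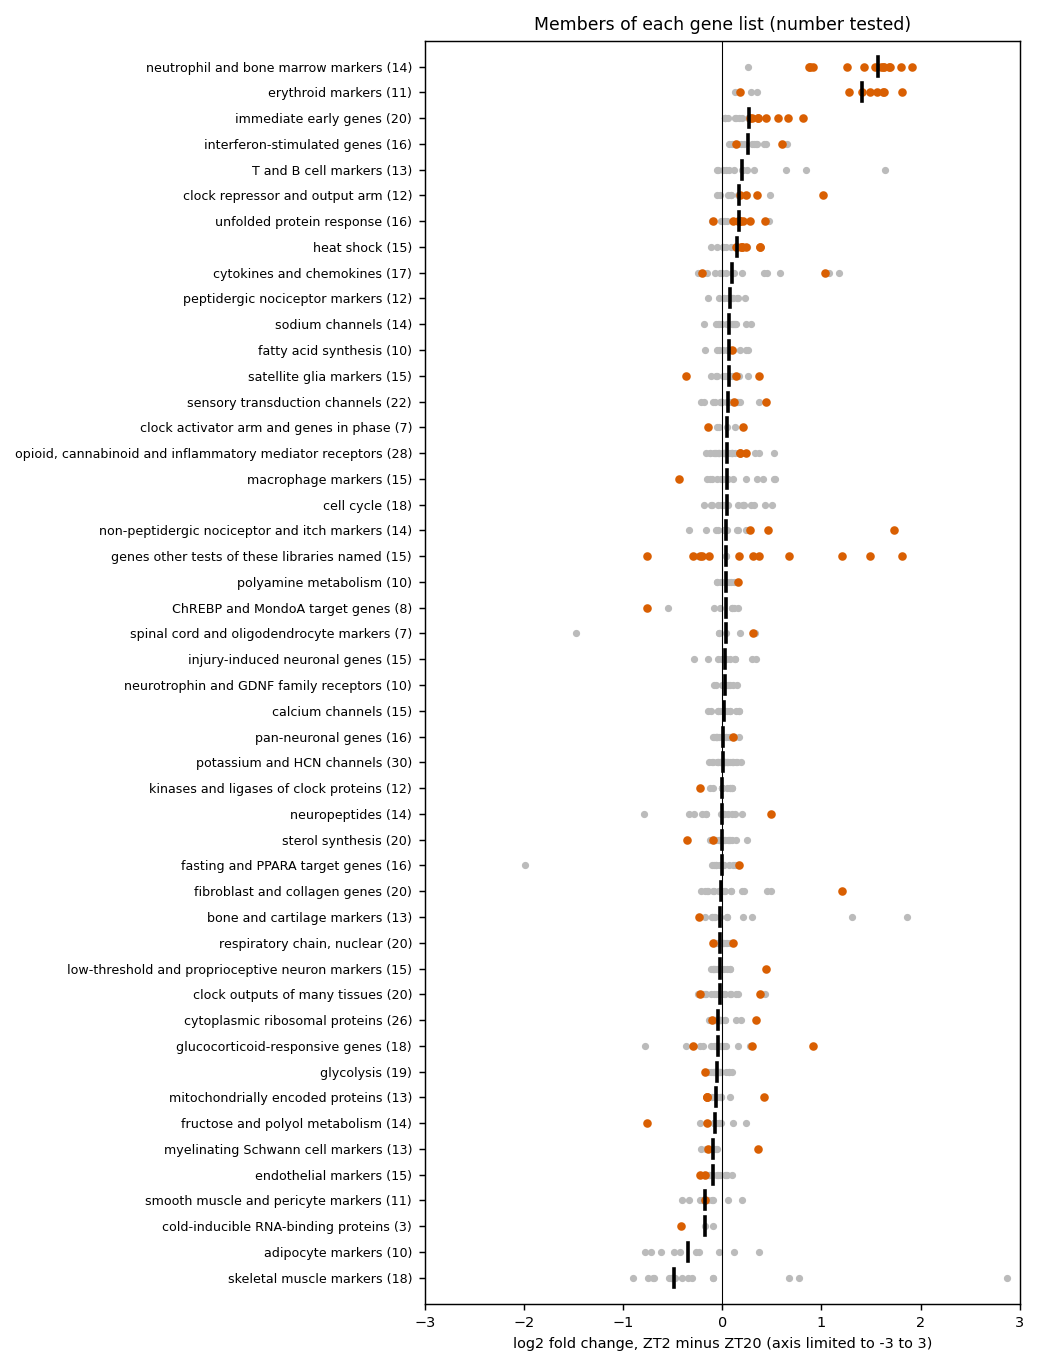
Log2 difference between ZT2 and ZT20 (x axis, drawn from -3 to 3, positive where ZT2 is higher) of each tested member (points) of the 48 lists (y axis, number tested in brackets), orange where the unadjusted p is under 0.05, with a bar at each list's median. The neutrophil and erythroid lists stand apart at medians of 1.57 and 1.41, and most other medians lie within 0.2 of 0.

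Among protein-coding genes of at least 1 CPM whose groups did not overlap, the 12 of lowest p in each direction included several already described. Those higher at ZT2 were Alas2, Emilin1, Dock9, Lpar1, Hba-a1, Camp, S100a8, Nr1d1, Hbb-bt, Hbb-bs, Ctnnd1 and Cebpg. Ctnnd1, p120 catenin, read 46.6, 44.9 and 49.1 CPM at ZT2 and 36.6, 38.0 and 41.7 CPM at ZT20, and Cebpg, a bZIP factor that pairs with ATF4, read 21.6, 20.8 and 21.7 CPM at ZT2 and 16.1, 17.9 and 18.1 CPM at ZT20. Neither overlapped, and they differed by 0.27 ± 0.05 and 0.30 ± 0.06 on the log2 scale. Those lower at ZT2 were Khk, Slc4a11, Taf8, Sertad1, Sema6c, Ecscr, Gtse1, Ppp1r15a, Tead3, Ddn, Yif1a and Eif2b1.

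Slc4a11, a transporter of the bicarbonate family, read 16.7, 15.7 and 20.0 CPM at ZT2 and 24.7, 24.9 and 27.4 CPM at ZT20. Its difference of -0.55 ± 0.09 had an edgeR adjusted p of 0.228, and ZT14, at 18.2 CPM, was at the ZT2 level. Sertad1, a co-regulator of E2F activity, read 15.4, 15.6 and 15.1 CPM at ZT2 and 21.6, 20.2 and 19.3 CPM at ZT20. As for Khk, its ZT8 and ZT14 means, 19.6 and 20.7 CPM, were near ZT20. Tead3, a factor of the Hippo pathway, read 4.67, 4.09 and 3.78 CPM at ZT2 and 5.56, 5.88 and 5.83 CPM at ZT20, and Ddn, dendrin, a protein of neuronal dendrites, 18.4, 18.2 and 19.2 CPM at ZT2 and 26.4, 22.8 and 27.8 CPM at ZT20. Taf8, Sema6c, Ecscr, Gtse1, Yif1a and Eif2b1 differed by -0.70 to -0.20. The 11 genes other than Khk had an edgeR adjusted p of at least 0.228. Outside protein-coding genes, Gm13375, annotated as antisense on chromosome 2, read 9.90, 9.43 and 11.3 CPM at ZT2 and 20.1, 14.9 and 18.3 CPM at ZT20, a difference of -0.80 ± 0.12 without overlap (edgeR adjusted p = 0.0972).

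Genes that other tests across the 4 times had named were chosen on these same libraries, so their directions here are not independent evidence. Of these 15 genes 12 had an unadjusted p under 0.05, 7 higher and 5 lower at ZT2. Dbi, an acyl-CoA-binding protein, read 654, 644 and 622 CPM at ZT2 and 563, 579 and 562 CPM at ZT20, and Slco1a4, which carries organic anions across the endothelium of blood-tissue barriers, read 11.2, 10.3 and 11.1 CPM at ZT2 and 12.7, 13.2 and 12.3 CPM at ZT20. Neither gene overlapped between the times. Fmo2, a flavin monooxygenase that averaged 17.8 CPM at ZT14, was at 6.43 and 7.62 CPM at ZT2 and ZT20, with overlap. Sat1 and Spg21 differed by 0.04 each.

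Medians of housekeeping groups lay near 0. The 20 nuclear respiratory chain genes had a median of -0.02 and 26 ribosomal protein genes a median of -0.04, each with 1 member higher and 1 lower at an unadjusted p under 0.05. Of the ribosomal genes 21 lay below 0, and the higher one was Rps18, at 0.34. Of 13 mitochondrially encoded genes 11 lay below 0, with a median of -0.06, 3 lower and 1 higher at that p. The higher one, mt-Nd4, had the largest difference of the list, at 0.42. The lower ones were mt-Co1, mt-Nd1 and mt-Nd4l, at -0.15 each, and without ZT20 replicate 1 none of the 13 was lower at that p. Of 18 cell cycle genes 0 had an unadjusted p under 0.05, and at most 2 were higher at that p with 1 of the 6 libraries left out.

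No marker of the other cell types the tissue holds passed in edgeR. Of 15 endothelial markers 11 lay below 0 with a median of -0.10, and 2 were lower at an unadjusted p under 0.05, Slc2a1 and Slco1a4, both given above. Of 11 smooth muscle and pericyte markers 9 lay below 0, with a median of -0.17, and of -0.28 to -0.12 with 1 of the 6 libraries left out. Of these markers 1 was lower at that p, Notch3, a receptor of mural cells, at -0.17 ± 0.08. Among 20 fibroblast and collagen genes 10 lay above 0 and the list's median was -0.01. Of them 1 was higher at an unadjusted p under 0.05, Emilin1, against 3.23% of all tested genes. Of 17 tested cytokines and chemokines, 1 was higher and 1 lower at that p. Cxcl1, a chemokine that draws neutrophils, was higher by 1.04 ± 0.36, and Il18, an interleukin of the IL-1 family, was lower, at -0.20 ± 0.08. Of 16 pan-neuronal genes 8 lay above 0, and 1 was higher at that p, Elavl3, an RNA-binding protein of neurons, at 0.11 ± 0.04.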

How the data were processed

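RNA was enriched with oligo(dT) beads and sequenced as paired reads of 150 bases, per the labels' protocols. Per the submitters' processing notes, HISAT2 2.2.1, StringTie 2.1.5 and build GRCm38.p6 were used; the sources used here do not give their roles, the annotation release or the handling of strand, so overlapping and antisense genes cannot be told apart. The deposited table holds estimated counts (expected counts, not whole numbers) for 38942 rows. The 348 assembled loci, 0.203% to 0.231% of a library, were left out. A coverage of 1 gave the same value, 16.4 to 17.2 within a library, whatever the gene's length, so values are on a coverage scale, the number of reads is unknown, and count models treat the sampling error only approximately.

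Of 38594 Ensembl IDs, 38462 matched GENCODE M21. Values were rounded and fitted in edgeR 4.0.16 (R 4.3.3) and tested by quasi-likelihood: filterByExpr, TMM, robust fit over all 12 libraries, contrast ZT2 minus ZT20, no covariate. It kept 25809 genes, 16666 of them protein-coding; 12785 fell under the filter. Adjusted p-values are Benjamini-Hochberg over all tested genes, with 0.05 as the threshold. DESeq2 1.42.0 and limma 3.58.1 were alternatives. Log2 differences are ± SE. The code was tested on simulated counts. Tables and figures used Python 3.11.15, pandas 2.3.3 and matplotlib 3.10.9.

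The comparison, its 48 gene lists and its tests were chosen with earlier results of these data known. Named genes are those past the threshold; the 12 protein-coding genes of lowest p in each direction with a mean of at least 1 CPM and no overlap between times; all members of the clock arms, the fructose list and the list from other tests; from each other list the 2 of highest mean and those at an unadjusted p under 0.05; genes called in any edgeR setting; and 4 tested neighbours on each side of called genes. List members given for their role beyond this rule, such as Trpv1 or Kcnq3, were added later, and some members that the rule names are not reported here. Lists are described by counts and medians without a test. Other settings were RLE or library totals as scaling, other filters, the 6 libraries alone, a replicate block, approximate read pairs, muscle RNA as covariate or its richest libraries left out, and each library left out; the list counts under left-out libraries, muscle settings and totals were added after seeing the data.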

Additional observations from a re-analysis of the deposited data

How the results depend on the processing

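The count of genes past the threshold for ZT2 against ZT20, 1 in edgeR, was 83 in DESeq2, 4 with muscle RNA as a covariate (Khk, Alas2, Emilin1 and Gm13375), 0 in the 6 libraries alone and 0 without the library richest in muscle RNA at each time. Leaving out 1 library gave 0 to 11. These fits had fewer libraries, and the cause of the changed counts was not tested. The value 0 came from leaving out the first ZT2 library, the first or second ZT8 library, the third ZT14 library, or the first or the third ZT20 library. It was 11 without ZT2 replicate 3; 3 with the second ZT20 library left out; and 2 with the third ZT8 library left out. It was 1 with limma-trend, RLE scaling, library totals alone, no filter, a mean of at least 1 CPM or approximate read pairs. For the difference between the steps, 0 in edgeR became 2 with limma-trend, 76 in DESeq2, 4 with library totals alone, 2 without a filter, 2 at a mean of at least 1 CPM, 2 for approximate read pairs and 0 to 4 without 1 library, 4 without ZT14 replicate 1. With the replicate number as a block the counts were 1 for ZT2 against ZT20 (Khk) and 1 for the steps. Between ZT2 and ZT20, deviations from the mean of the time had r of 0.01 to 0.03 for libraries of the same number. For libraries of different number r was -0.04 to 0.02. This check covered no other time and cannot show whether libraries of the same number share a batch. Of 224 named genes, 172 had the same sign in all settings, and no called value changed sign. The coverage scale hides the read depth, so no counting interval is given.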
